A study of Rattus norvegicus with 24 samples.

Results

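The genes described here are those of cholesterol and fatty acid synthesis together with the proteins that control the sterol regulatory element binding proteins (SREBPs), measured by RNA-seq in rat neural stem cells and in cells differentiated from them with or without vitamin C. They were taken from a list of 38 symbols, matched by symbol in the table of 12187 genes; 37 of the 38 had a row, and all 37 passed the minimum level for testing. The listed symbol Scd had no row of its own, and the table's Scd1 is a synonym of RefSeq's Scd, so the gene is counted once. The 37 genes are 18 sterol synthesis enzymes, 1 sterol transport protein, 5 SREBP regulators and 13 genes of the fatty acid arm.

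Each of 3 groups had 2 RNA-seq libraries from cells of Sprague-Dawley background. VC+ cells were differentiated neural stem cells given vitamin C, VC- cells were differentiated without it, and D0 cells were the neural stem cells. Differentiated libraries were labelled D4 for replicate 1 and D5 for replicate 2, and the dose of vitamin C is not given in the sources used here. Whether the replicates were separate cultures or animals is likewise not given. The p-values below therefore reflect variation between these libraries, and no spread between animals can be read from them. Much of that variation follows replicate number. Deviations from the group mean correlated across genes at 0.914 between VC+ and VC- libraries. The source of this variation was not tested. Levels are read counts scaled to library size by the authors (CPM). Differences are on the log2(CPM + 0.5) scale, the group named first minus the other, with the standard error (SE) of a limma fit over all genes where one is given. The other 18 of the 24 samples in the series, on DNA methylation, hydroxymethylation and transcription factor binding, were not analysed here.

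Cholesterol is built from acetyl-CoA through mevalonate, farnesyl diphosphate, squalene and lanosterol, and fatty acids are built from the same acetyl-CoA through malonyl-CoA. SREBPs are held in the endoplasmic reticulum by SCAP and INSIG proteins when sterols are plentiful, and are released, cleaved and sent to the nucleus when sterols are scarce. SREBP-2 acts mainly on sterol genes and SREBP-1c mainly on fatty acid genes. The brain makes nearly all of its own cholesterol, astrocytes supply much of it to neurons, and oligodendrocytes use large amounts for myelin.

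The promoters of these genes are shown first. RefSeq promoters of the GRCr8 build, 300 bases each (250 before to 50 after the gene's start), matched 30 of the 37 genes; Srebf1 has a pair of promoters, so there were 31. They were searched on both strands for the CCAAT box (CCAAT, read as ATTGG on the reverse strand), bound by NF-Y, a known partner of SREBPs, and for a core of the sterol regulatory element (CACNCCAC). No match of one motif overlapped a match of the other. Taking the first promoter of each gene, a CCAAT box lay in 12 of 15 sterol enzyme promoters (80.0%), 4 of 5 regulator promoters and 7 of 10 fatty acid arm promoters (70.0%). The share was 37.5% of all 33469 promoters and 37.4% of the first promoters of 9516 genes tested. At least 2 CCAAT boxes lay in 10 of the 15 sterol enzyme promoters (66.7%) and in 2 of 10 of the fatty acid arm, against 13.5% of genes tested. In the sterol enzyme promoters 7 of 30 matches were on the forward strand. The sterol regulatory core was found in 5 of 30 promoters (16.7%), against 5.80% of all promoters and 5.92% of those of genes tested. They were the promoters of Ebp, Acat2, Elovl5 and Fads1, and that of Insig1 with 2 matches. Neither motif was found for Cyp51, Dhcr7, Scap, Scd1, Fads2 or Me1. The matches describe the letters in the window and were not tested for binding.

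Hmgcs1 and Scd1 were the 2 listed genes that passed a test with vitamin C, by DESeq2 with replicate as a block. No listed gene passed in that comparison in any other setting tried. Below are the promoters of Hmgcs1 and Scd1, of Mvk and Nsdhl, which had the most CCAAT boxes (5 each), of Insig1, and of Cyp51, which like Scd1 has neither motif. In the GRCr8 build they lie at chr2:53382054-53382353 (+ strand) for Hmgcs1, chr1:253231682-253231981 (- strand) for Scd1 (RefSeq Scd), chr12:47819454-47819753 (- strand) for Mvk, chrX:155817110-155817409 (+ strand) for Nsdhl, chr4:8057720-8058019 (- strand) for Insig1 and chr4:30991443-30991742 (+ strand) for Cyp51. Each is written 5′ to 3′ on the gene's strand, with matches to either motif in capitals (CCAAT or ATTGG for the CCAAT box, the reverse of the sterol core in Insig1). In Mvk, 4 of the 5 boxes are on the reverse strand, at 173, 120, 67 and 14 bases before the start, and so are spaced 53 bases apart each time.
Hmgcs1: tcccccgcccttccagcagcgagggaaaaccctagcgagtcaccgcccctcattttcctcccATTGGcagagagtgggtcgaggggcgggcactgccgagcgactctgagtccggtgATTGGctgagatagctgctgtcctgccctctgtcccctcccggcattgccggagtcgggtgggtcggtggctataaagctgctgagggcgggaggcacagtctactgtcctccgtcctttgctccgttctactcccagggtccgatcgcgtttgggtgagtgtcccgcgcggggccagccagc
Scd: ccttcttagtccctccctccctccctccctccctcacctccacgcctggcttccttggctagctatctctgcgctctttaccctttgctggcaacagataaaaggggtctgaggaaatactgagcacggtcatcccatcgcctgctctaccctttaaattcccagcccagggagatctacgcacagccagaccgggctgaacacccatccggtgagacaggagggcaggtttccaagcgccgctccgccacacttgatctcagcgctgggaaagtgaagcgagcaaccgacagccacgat
Mvk: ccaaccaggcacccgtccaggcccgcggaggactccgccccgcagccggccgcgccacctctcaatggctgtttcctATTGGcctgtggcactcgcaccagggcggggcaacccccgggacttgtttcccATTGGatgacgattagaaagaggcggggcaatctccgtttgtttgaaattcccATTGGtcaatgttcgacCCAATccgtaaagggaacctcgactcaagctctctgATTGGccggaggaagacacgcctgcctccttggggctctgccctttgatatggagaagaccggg
Nsdhl: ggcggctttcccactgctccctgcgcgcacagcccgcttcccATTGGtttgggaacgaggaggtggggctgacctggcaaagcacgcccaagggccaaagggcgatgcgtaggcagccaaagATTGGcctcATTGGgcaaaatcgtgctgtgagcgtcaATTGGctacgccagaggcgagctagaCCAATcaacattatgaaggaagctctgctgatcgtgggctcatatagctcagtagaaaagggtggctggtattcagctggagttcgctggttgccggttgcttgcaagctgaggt
Insig1: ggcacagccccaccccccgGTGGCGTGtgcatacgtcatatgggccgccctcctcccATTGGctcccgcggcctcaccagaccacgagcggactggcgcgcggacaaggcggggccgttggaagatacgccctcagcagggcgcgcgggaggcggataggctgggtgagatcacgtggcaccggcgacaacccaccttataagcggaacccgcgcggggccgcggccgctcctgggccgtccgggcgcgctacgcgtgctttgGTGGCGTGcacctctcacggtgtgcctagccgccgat
Cyp51: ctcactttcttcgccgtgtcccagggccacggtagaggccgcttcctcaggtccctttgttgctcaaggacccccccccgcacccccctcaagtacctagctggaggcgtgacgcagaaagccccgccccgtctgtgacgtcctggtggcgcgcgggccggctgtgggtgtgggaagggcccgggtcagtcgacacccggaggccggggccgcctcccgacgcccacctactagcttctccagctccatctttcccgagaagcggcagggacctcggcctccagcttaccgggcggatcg

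Reads recovered per library ran from 5372983 to 13184601 in differentiated cells and were 4811094 and 10299321 in D0 cells, with the replicate 2 library deeper in every group. The libraries were further set apart by replicate in the markers of other cells. Summed levels of 12 microglia and macrophage markers were 5.93 and 655 CPM in VC+, 5.58 and 861 CPM in VC- and 6.68 and 325 CPM in D0 (replicate 1, then replicate 2, as for all pairs of values), with 3 to 7 markers at 0 in each replicate 1 library; Csf1r was at 0.191 to 0.378 CPM there and C1qa at 0 in VC+ and D0. Fibroblast, pericyte and meninges markers summed to 398 and 4271 CPM in VC+, 443 and 6478 CPM in VC- and 384 and 10388 CPM in D0. Oligodendrocyte lineage markers summed to 10454 and 999.2 CPM in VC+, 13793 and 1244 CPM in VC- and 2346 and 841 CPM in D0. Neuron markers summed to 551 and 494 CPM in VC+, 695 and 504 CPM in VC- and 545 and 575 CPM in D0. In such bulk samples fewer cells of a type and less RNA per cell cannot be told apart.

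Nearly every gene of both arms was higher in VC+ than in VC- cells in each replicate: 36 of 37, against 30.0% of all genes tested. The list was chosen with earlier results of these data known, so this comparison is a description and not a test. The 36 genes were all 18 sterol enzymes, the transport protein, all 5 regulators and 12 of 13 fatty acid genes. Lpin1, a phosphatidate phosphatase of lipid storage, was the exception. The median log2 difference over the sterol enzymes was 0.80, with 0.87 in replicate 1 and 0.62 in replicate 2, against 0.02 over all genes tested. For 12 of the 37 genes both VC+ libraries lay above both VC- libraries, against 8.15% of genes. Hsd17b7 and Elovl6 are counted here on few reads. In replicate 2 Hsd17b7 had 37 reads in VC+ and 31 in VC-, and Elovl6 had 9 and 25 reads in VC+ and 6 and 6 in VC-. These 12 were Sqle, Tm7sf2, Hsd17b7, Ebp, Scap, Fasn, Scd1, Scd2, Elovl5, Elovl6, Acsl1 and Me1; the other genes overlapped between groups because replicate 1 of the VC- cells exceeded replicate 2 of the VC+ cells, or, for Srebf1, Insig2 and Lpin1, the reverse. At an adjusted p under 0.05 limma called no gene (0 of 11823, 0%); 62 genes, among them Sqle, Scd1 and Acsl1, reached an unadjusted p under 0.05.

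**Figure D1:**
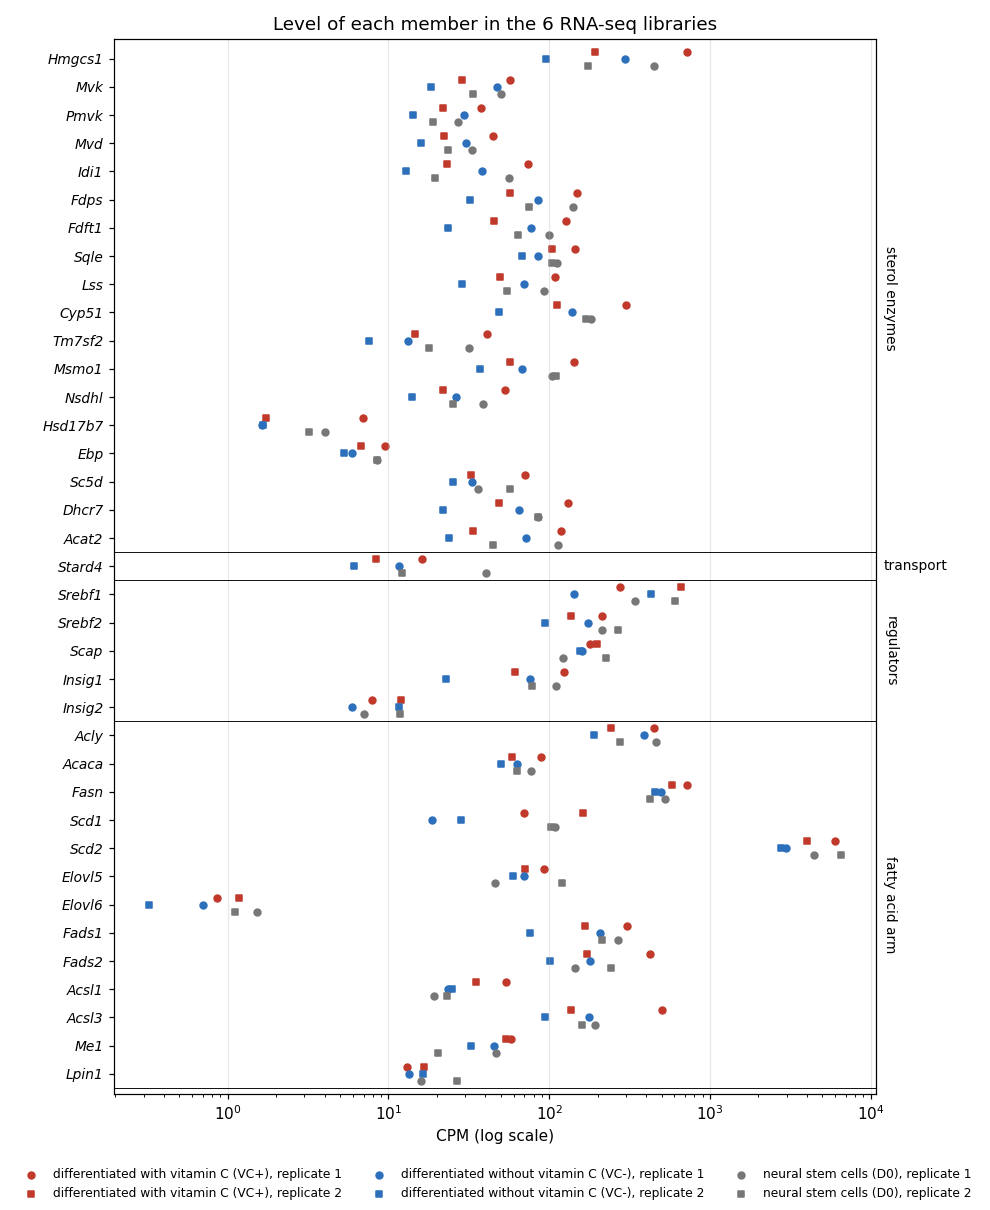
Level of each of the 37 genes in the 6 libraries, in CPM on a log axis, with VC+ in red, VC- in blue and D0 in grey (circles, replicate 1; squares, replicate 2). The red point lies to the right of the blue one in both replicates for 36 genes; levels of different genes are not per length and are not comparable with each other.

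Because VC+ and VC- libraries of a number share a day label as well, the comparison was repeated with replicate as a block. Limma with the block also called 0 of 11823 genes. Before adjustment 404 had p under 0.05, 16 of the 37 genes among them, and all 16 were higher in VC+, against 2.20% of genes. They were 11 sterol enzymes, 2 regulators (Srebf1 and Insig1) and 3 fatty acid genes (Scd1, Fads1 and Acsl1). DESeq2 with the block called 32 genes, of which 23 were higher in VC+ (0.195% of genes), and 2 of the listed genes were among them: Scd1 (log2 difference 2.24, SE 0.41, adjusted p 6.05e-05) and Hmgcs1 (1.14, SE 0.27, adjusted p 0.0158). DESeq2 without the block called 6 genes and none of those listed, with Scd1 at an adjusted p of 0.0682. edgeR called 0 genes with and without the block, with 435 and 66 genes at an unadjusted p under 0.05. With 2 libraries a group an exact permutation test that ignores the block cannot go below 0.333. A permutation within blocks has fewer arrangements, so its floor is higher.

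The first enzymes of the pathway carry acetyl-CoA to mevalonate and its phosphates. Hmgcs1, the cytosolic HMG-CoA synthase, had 719.5 and 192 CPM in VC+ libraries, 296 and 95.4 CPM in VC- libraries and 450.0 and 173 CPM in D0 libraries. Within replicates it was higher in VC+ than in VC- by 2.43-fold in replicate 1 and 2.01-fold in replicate 2, while its replicate 1 level in VC- exceeded its replicate 2 level in VC+, and the limma difference was 1.14 (SE 0.92). Acat2, which joins a pair of acetyl-CoA units, had 118 and 33.5 CPM in VC+ libraries, 72.1 and 24.0 CPM in VC- libraries and 113 and 44.6 CPM in D0 libraries. Mevalonate kinase (Mvk) had 56.6 and 28.7 CPM in VC+ libraries, against 47.1 and 18.4 CPM in VC- libraries, a log2 difference of 0.26 in replicate 1 and 0.63 in replicate 2. Both kinases showed small differences, with phosphomevalonate kinase (Pmvk) at 37.6 and 21.8 CPM in VC+ libraries, against 29.4 and 14.1 CPM in VC- libraries. Mevalonate diphosphate decarboxylase (Mvd) had 44.6 and 22.1 CPM in VC+ libraries, against 30.3 and 15.8 CPM in VC- libraries. These middle steps differed by less in both replicates than Hmgcs1 did.

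The next enzymes build and join isoprene units. Idi1, the isopentenyl diphosphate isomerase, had 74.2 and 23.3 CPM in VC+ libraries, 38.0 and 12.8 CPM in VC- libraries and 56.0 and 19.6 CPM in D0 libraries. Fdps, which makes farnesyl diphosphate, had 148 and 56.7 CPM in VC+ libraries, 85.7 and 32.3 CPM in VC- libraries and 141 and 75.2 CPM in D0 libraries, and its difference was nearly the same in both replicates, 0.78 in replicate 1 and 0.80 in replicate 2. Squalene synthase (Fdft1), the first step that only sterol synthesis uses, had 127 and 45.4 CPM in VC+ libraries, 77.5 and 23.5 CPM in VC- libraries and 100.3 and 63.6 CPM in D0 libraries. In all 3 of these genes the VC- library was the lowest of its replicate. Squalene epoxidase (Sqle) had 145 and 104 CPM in VC+ libraries, 85.2 and 67.8 CPM in VC- libraries and 112 and 103 CPM in D0 libraries. Sqle was among the few genes whose VC+ libraries did not overlap the VC- libraries, at a log2 difference of 0.69 (SE 0.26) by limma (adjusted p 1.00).

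The enzymes after squalene form and trim the sterol rings. Lanosterol synthase (Lss) had 109 and 49.6 CPM in VC+ libraries, 69.3 and 28.5 CPM in VC- libraries and 92.8 and 54.6 CPM in D0 libraries. Cyp51, the lanosterol demethylase, had 299.96 and 112 CPM in VC+ libraries, 138 and 48.8 CPM in VC- libraries and 182 and 169 CPM in D0 libraries, and was higher in VC+ by 2.17-fold in replicate 1 and 2.29-fold in replicate 2. Among the later enzymes Tm7sf2, a sterol reductase, showed the largest limma difference of the 18, 1.25 (SE 0.62). Its levels were 41.0 and 14.7 CPM in VC+ libraries, 13.3 and 7.58 CPM in VC- libraries and 31.7 and 17.9 CPM in D0 libraries, with the lower VC+ library above the higher VC- library. Msmo1, the sterol methyl oxidase, had 142 and 56.9 CPM in VC+ libraries, 67.8 and 37.2 CPM in VC- libraries and 103 and 110.1 CPM in D0 libraries. Nsdhl, the decarboxylating sterol dehydrogenase, had 53.0 and 21.7 CPM in VC+ libraries, 26.2 and 14.0 CPM in VC- libraries and 38.5 and 25.1 CPM in D0 libraries. Both exceeded VC- by more in replicate 1 than in replicate 2, Msmo1 by 2.09-fold in replicate 1 and 1.53-fold in replicate 2 and Nsdhl by 2.03-fold in replicate 1 and 1.55-fold in replicate 2.

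Among the last steps Hsd17b7 and Sc5d were uneven between replicates. Hsd17b7, a ketosteroid reductase, had 6.98 and 1.73 CPM in VC+ libraries, 1.63 and 1.67 CPM in VC- libraries and 4.04 and 3.22 CPM in D0 libraries, resting on 73 and 37 reads in VC+ and on 14 and 31 reads in VC-. Its difference was 1.81 in replicate 1 and 0.04 in replicate 2, so the replicate 2 libraries were almost equal. Ebp, the sterol isomerase, had 9.57 and 6.79 CPM in VC+ libraries, 5.93 and 5.27 CPM in VC- libraries and 8.45 and 8.54 CPM in D0 libraries. Sc5d, the sterol desaturase, had 71.0 and 32.5 CPM in VC+ libraries, 33.1 and 25.1 CPM in VC- libraries and 36.1 and 56.8 CPM in D0 libraries, with differences of 1.09 in replicate 1 and 0.37 in replicate 2. Dhcr7, which reduces 7-dehydrocholesterol to cholesterol, had 131 and 48.8 CPM in VC+ libraries, 64.6 and 21.9 CPM in VC- libraries and 85.4 and 85.3 CPM in D0 libraries, and exceeded VC- by 2.02-fold in replicate 1 and 2.23-fold in replicate 2. Stard4, a carrier of cholesterol between membranes, had 16.2 and 8.38 CPM in VC+ libraries, 11.6 and 6.13 CPM in VC- libraries and 40.6 and 12.2 CPM in D0 libraries. It was higher in VC+ than in VC- in both replicates, but both differentiated groups lay below D0 in each.

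Among the regulators, the genes of both SREBPs and of Insig1 were higher in VC+ in each replicate. Srebf1, which encodes SREBP-1, had 275 and 660.0 CPM in VC+ libraries, 142 and 432 CPM in VC- libraries and 344 and 609 CPM in D0 libraries, and unlike most of the enzymes it was higher in replicate 2 in every group. Srebf2, which encodes SREBP-2, had 214 and 136 CPM in VC+ libraries, 173 and 94.7 CPM in VC- libraries and 213 and 268 CPM in D0 libraries. Insig1, the retention protein and itself a known SREBP target, had 124 and 61.3 CPM in VC+ libraries, 76.0 and 22.9 CPM in VC- libraries and 111 and 78.7 CPM in D0 libraries. Its VC- replicate 2 library was the lowest of the 6, and its log2 difference was 0.70 in replicate 1 and 1.40 in replicate 2. Scap, the SREBP escort protein, had 179 and 199.7 CPM in VC+ libraries, 159.6 and 156 CPM in VC- libraries and 121 and 224 CPM in D0 libraries, and Insig2, the other retention protein, had 7.94 and 11.9 CPM in VC+ libraries, 5.93 and 11.7 CPM in VC- libraries and 7.06 and 11.8 CPM in D0 libraries. The differences in Scap and Insig2 were small, 0.26 (SE 0.34) and 0.21 (SE 0.52) (log2, limma), and both adjusted p-values were 1.00.

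The fatty acid arm holds 4 desaturases. Scd1, a stearoyl-CoA desaturase that makes monounsaturated fatty acids, had 70.0 and 162 CPM in VC+ libraries, 18.6 and 28.3 CPM in VC- libraries and 108 and 103 CPM in D0 libraries. Both VC- libraries were the lowest, VC+ exceeded VC- by 3.77-fold in replicate 1 and 5.73-fold in replicate 2, and the log2 difference was 2.19 (SE 0.46) by limma. Scd2, the brain form of the enzyme in rodents, had 5962 and 4045 CPM in VC+ libraries, 2979 and 2782 CPM in VC- libraries and 4449 and 6564 CPM in D0 libraries. Scd1 and Scd2 are close paralogs, and the read counter is not given in the sources used here, so reads that fit both may have been split between them. Fads1, a desaturase of polyunsaturated fatty acids, had 304 and 168 CPM in VC+ libraries, 208 and 76.0 CPM in VC- libraries and 269.9 and 215 CPM in D0 libraries. Fads2, which acts before it in the same route, had 423 and 171 CPM in VC+ libraries, 179 and 101 CPM in VC- libraries and 145 and 242 CPM in D0 libraries. For both the VC+ library exceeded the VC- library of its replicate, but VC- replicate 1 lay above VC+ replicate 2.

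Other enzymes of the arm supply and extend the chain. Acly, which makes cytosolic acetyl-CoA from citrate, had 446 and 241 CPM in VC+ libraries, against 389 and 190.2 CPM in VC- libraries. Acaca, which makes malonyl-CoA, had 88.8 and 58.9 CPM in VC+ libraries, against 63.0 and 50.1 CPM in VC- libraries. Fasn, the fatty acid synthase, had 725 and 582 CPM in VC+ libraries, 496 and 457 CPM in VC- libraries and 528 and 423 CPM in D0 libraries. Fasn was the one of these 3 whose groups did not overlap, with a log2 difference of 0.45 (SE 0.30) by limma. Me1, the malic enzyme that yields NADPH, had 57.6 and 53.8 CPM in VC+ libraries, 45.6 and 32.5 CPM in VC- libraries and 46.4 and 20.2 CPM in D0 libraries, also without overlap between VC+ and VC-. The elongase Elovl5 had 92.8 and 71.1 CPM in VC+ libraries, against 70.1 and 59.9 CPM in VC- libraries. Elovl6, the elongase of saturated chains, was barely detected, at 9 and 25 reads in VC+, 6 and 6 reads in VC- and 12 and 17 reads in D0.

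Of the acyl-CoA synthetases, which activate fatty acids, Acsl1 had 53.8 and 34.8 CPM in VC+ libraries, 23.5 and 24.8 CPM in VC- libraries and 19.2 and 23.1 CPM in D0 libraries. Acsl1 was higher in VC+ than in both other groups without overlap. Acsl3 had 502 and 136 CPM in VC+ libraries, 177 and 94.3 CPM in VC- libraries and 192 and 159.8 CPM in D0 libraries, where VC+ replicate 1 stood far above the other 5 libraries. Lpin1 had 13.0 and 16.7 CPM in VC+ libraries, against 13.5 and 16.4 CPM in VC- libraries, a log2 difference of -0.05 in replicate 1 and 0.02 in replicate 2.

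**Figure D2:**
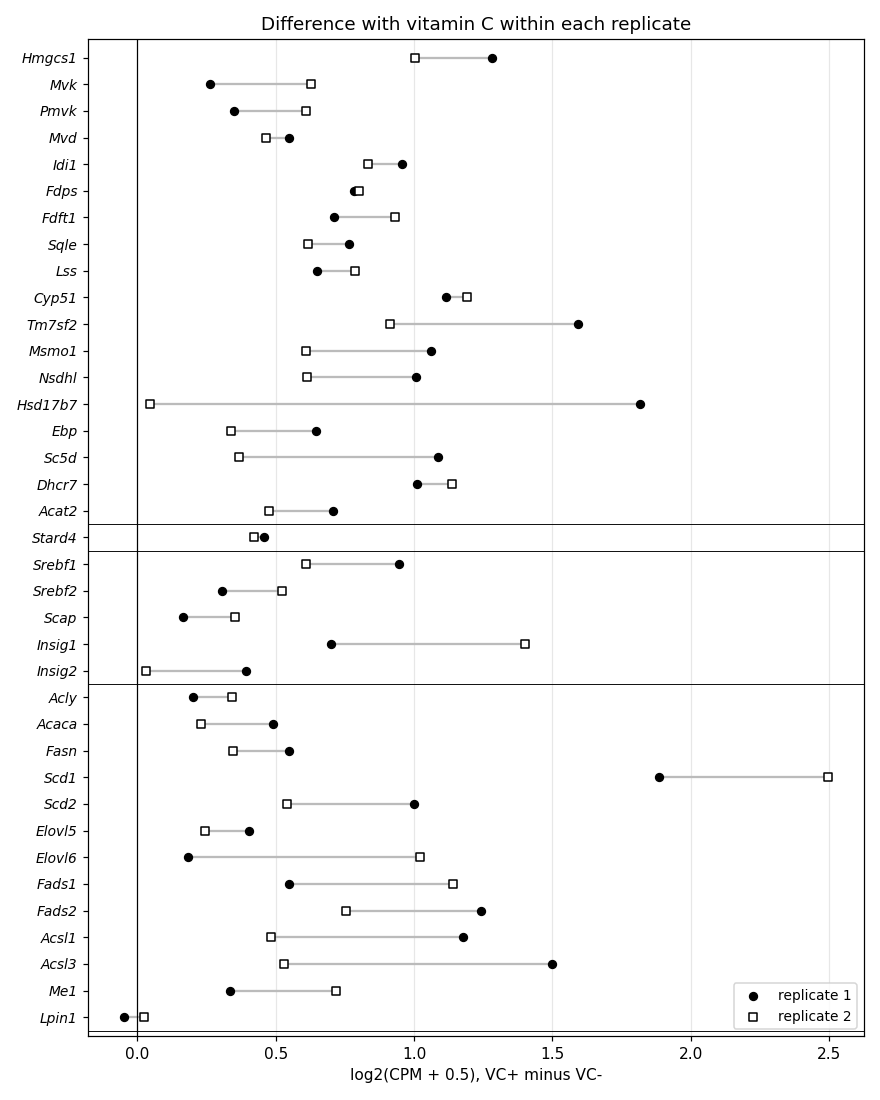
Difference in log2(CPM + 0.5), VC+ minus VC-, for each gene within replicate 1 (filled circles) and replicate 2 (open squares), from the sterol enzymes at the top to the fatty acid arm at the bottom. Lpin1 in replicate 1 is the one point left of 0, and Scd1 lies farthest right in both replicates.

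The arms were then set side by side. Over the fatty acid arm the log2 differences with vitamin C had their median at 0.60, with 0.55 in replicate 1 and 0.53 in replicate 2, and over the regulators at 0.41, with 0.39 in replicate 1 and 0.52 in replicate 2. The sterol median exceeded the fatty acid median by 0.20, by 0.32 in replicate 1 and by 0.09 in replicate 2, and this difference was not tested. The fatty acid median was the value of Elovl6, the gene with the fewest reads. On the paired count fits (edgeR and DESeq2), where Elovl6 was at a log2 difference of 1.11 by DESeq2, the gap between arms was 0.015 with either tool. Without VC+ replicate 1 or VC- replicate 2 the sterol median was 0.16 or 0.32 and the gap -0.19 or -0.02, and without VC+ replicate 2 or VC- replicate 1 the median was 1.48 or 1.31 and the gap 0.77 or 0.51. The fatty acid median was 0.35, 0.33, 0.71 and 0.79 in the same order. Leaving a library out brings the difference between replicates into the comparison.

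Lists of neighbouring pathways show how far the difference reached. Over all genes tested, 30.0% were higher and 26.4% lower in VC+ than in VC- in both replicates. Of 24 tested other enzymes of fatty acid and acetyl-CoA metabolism, 16 were higher in VC+ in both replicates and 1 was lower, with a median log2 difference of 0.22, with 0.22 in replicate 1 and 0.34 in replicate 2. Hacd3, a dehydratase of chain elongation, had 260.4 and 150.5 CPM in VC+ libraries, against 187 and 124 CPM in VC- libraries, and Tecr, the last enzyme of the elongation cycle, had 360.4 and 249.9 CPM in VC+ libraries, against 343 and 233 CPM in VC- libraries. Of 6 SREBP processing genes 5 were higher in both replicates, among them Mbtps1, the first protease to cleave SREBPs, at 129.7 and 127 CPM in VC+ libraries, against 109 and 116 CPM in VC- libraries. Aup1, a protein of the endoplasmic reticulum, was lower in both, at 61.1 and 62.4 CPM in VC+ libraries, against 69.2 and 68.6 CPM in VC- libraries. Of 10 genes of the isoprenoid branch that does not lead to sterols, 0 were higher in both replicates and 2 were lower (median -0.02, with -0.06 in replicate 1 and 0.00 in replicate 2). Fnta, a subunit of the enzymes that attach prenyl groups, was higher in replicate 1 only, at 186 and 55.6 CPM in VC+ libraries, against 116 and 57.9 CPM in VC- libraries, and Pggt1b, a subunit of a prenyl transferase, had 47.3 and 33.9 CPM in VC+ libraries, against 47.8 and 38.0 CPM in VC- libraries.

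Genes that move sterols out of, into or within cells were mixed. The counts below stand beside the same shares of all genes tested, 30.0% higher and 26.4% lower. Of 10 sterol efflux and LXR target genes 4 were higher and 2 lower in both replicates, and the list's median was 0.24, with 0.46 in replicate 1 and -0.04 in replicate 2. Apoe, the main lipid carrier protein of the brain, had 3384 and 5278 CPM in VC+ libraries, 830.0 and 4491 CPM in VC- libraries and 258 and 1620.1 CPM in D0 libraries, and Clu, another lipid carrier, had 751 and 1624 CPM in VC+ libraries, 267 and 954 CPM in VC- libraries and 35.6 and 433 CPM in D0 libraries. Both are abundant in astrocytes. Of 15 genes of sterol uptake, storage and turnover 3 were higher and 3 lower, with Lrp1, a lipoprotein receptor, at 1208 and 841 CPM in VC+ libraries, against 1074 and 1169 CPM in VC- libraries and Npc2, a lysosomal sterol carrier, at 78.9 and 164 CPM in VC+ libraries, against 77.4 and 159.9 CPM in VC- libraries. Of 19 genes of mitochondrial fatty acid oxidation 5 were higher and 4 lower (median 0.03, with -0.03 in replicate 1 and 0.09 in replicate 2), with Hadha, a subunit of the trifunctional protein, at 261 and 197 CPM in VC+ libraries, against 240.1 and 205 CPM in VC- libraries and Cpt1a, the gate to oxidation, at 158 and 133 CPM in VC+ libraries, against 199.7 and 142 CPM in VC- libraries. None of the genes in these lists passed limma in this comparison.

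**Figure D3:**
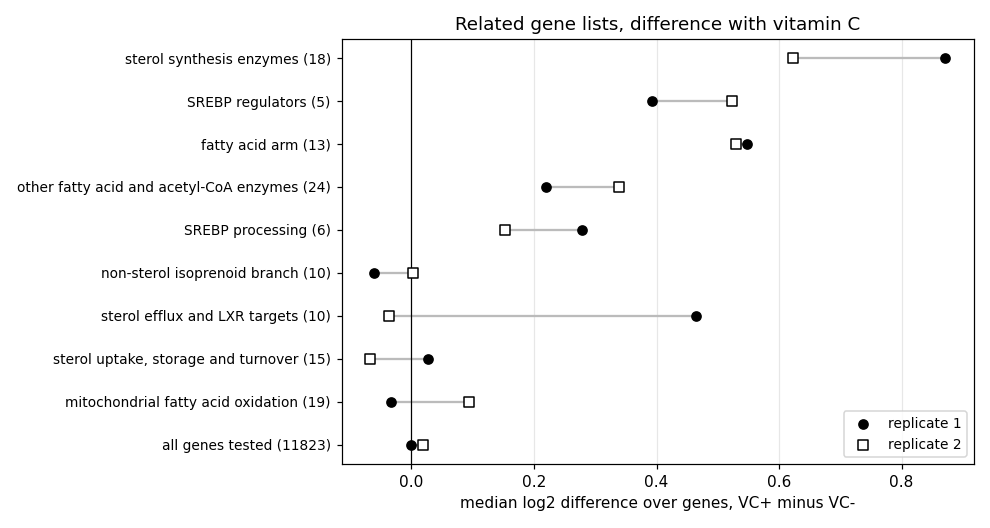
Median log2 difference, VC+ minus VC-, over the genes of each list (number tested in brackets) within replicate 1 (filled circles) and replicate 2 (open squares). The sterol enzymes, regulators and fatty acid arm lie between 0.39 and 0.87 in both replicates, and all genes tested lie at 0.00 and 0.02.

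Markers of astrocytes, cells known to make much sterol, and of other cell types differed in the same comparison. Of 12 astrocyte markers 9 were higher in VC+ than in VC- in both replicates and 1 was lower, and they summed to 5731 and 7298 CPM in VC+, 1989 and 2965 CPM in VC- and 1771 and 2872 CPM in D0. Aqp4, the water channel of astrocytes, had 2322 and 2392 CPM in VC+ libraries, 385 and 687 CPM in VC- libraries and 59.1 and 470.1 CPM in D0 libraries, whereas Slc1a3, a glutamate transporter also used by neural stem cells, had 545 and 476 CPM in VC+ libraries, 421 and 441 CPM in VC- libraries and 606 and 852 CPM in D0 libraries. None of the 12 markers was at 0 in any library. Of 15 oligodendrocyte lineage markers 6 were higher and 8 lower. Mbp, a myelin protein, had 3212 and 127 CPM in VC+ libraries, 5346 and 221 CPM in VC- libraries and 47.3 and 5.85 CPM in D0 libraries. Olig1, of the same list, had 745 and 72.6 CPM in VC+ libraries, 1691 and 112 CPM in VC- libraries and 1358 and 303 CPM in D0 libraries. Of 12 neuron markers 8 were lower in VC+ than in VC- in both replicates and 1 was higher, with a median log2 difference of -0.29. Of 12 microglia and macrophage markers 6 were lower and 0 higher. In replicate 1 these 12 summed to only 5.93 CPM in VC+ and 5.58 CPM in VC-, with 6 and 3 of them at 0. Their signs in that replicate therefore rest on few reads. Of 10 tested fibroblast, pericyte and meninges markers 5 were lower and 1 higher. The background shares in both replicates were 26.4% for lower and 30.0% for higher. The part of these cell types in the differences of the sterol and fatty acid genes was not tested.

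Cells differentiated without vitamin C lay below the stem cells. In VC- against D0, 30 of 37 genes were lower in both replicates, against 29.5% of genes, and both VC- libraries lay below both D0 libraries for 16 genes, against 13.2%. The 30 were 17 of 18 sterol enzymes, Stard4, 4 of 5 regulators and 8 of 13 fatty acid genes. Median log2 differences were -0.71, with -0.45 in replicate 1 and -0.87 in replicate 2, for the sterol enzymes, -0.88, with -0.30 in replicate 1 and -0.52 in replicate 2, for the regulators and -0.44, with -0.24 in replicate 1 and -0.76 in replicate 2, for the fatty acid arm. The regulator medians fell on different genes, Srebf1 in the fit, Srebf2 in replicate 1 and Scap in replicate 2. The fitted regulator median therefore lies beyond those of both replicates. Sterol minus fatty acid median was -0.27 (-0.21 in replicate 1 and -0.11 in replicate 2, a gap not tested), and it ran from -0.62 without D0 replicate 2 to 0.23 without D0 replicate 1. The sterol median was -1.32 without VC- replicate 1, -1.07 without D0 replicate 2 and -0.25 without VC- replicate 2, and the fatty acid median was -0.88 without VC- replicate 1, -0.70 without D0 replicate 1 and -0.085 without VC- replicate 2. By limma without the replicate block 0 of 11823 genes (0%) passed. Of the 382 genes at an unadjusted p under 0.05, only Scd1 was a listed gene. edgeR without the block called 0 as well, with 384. More listed genes were reached with the block, as given with the other settings below.

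DESeq2, run on the recovered reads without a block, called 71 genes, 50 of them lower in VC- (0.423%), and Scd1 was the 1 listed gene among them (adjusted p 0.0279). Scd1 had 18.6 and 28.3 CPM in VC- libraries, against 108 and 103 CPM in D0 libraries, a limma difference of -2.18 (SE 0.46). Stard4 had 11.6 and 6.13 CPM in VC- libraries, against 40.6 and 12.2 CPM in D0 libraries, a limma difference of -1.35 (SE 0.72). Of the sterol enzymes Tm7sf2 (-1.21, SE 0.62), Dhcr7 (-1.17, SE 0.68), Cyp51 (-1.09, SE 0.67) and Msmo1 (-1.08, SE 0.52) had log2 differences beyond -1 by limma. The last 3 differed far more in replicate 2 than in replicate 1, Dhcr7 by -0.40 in replicate 1 and -1.94 in replicate 2. Pmvk was the 1 sterol enzyme that was not lower in both, at 0.12 in replicate 1 and -0.40 in replicate 2.

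The upper part of the pathway was lower too, though with overlap between groups. Hmgcs1 differed by -0.60 in replicate 1 and -0.86 in replicate 2 and Fdps by -0.72 in replicate 1 and -1.20 in replicate 2. Among regulators Srebf2 and Insig1 had both VC- libraries below both D0 libraries, at -0.90 (SE 0.40) and -1.15 (SE 0.67) by limma. Acsl1 was the 1 gene that was higher in VC- in both replicates, by 0.29 in replicate 1 and 0.10 in replicate 2; Fasn, Me1, Elovl5, Fads2 and Scap were mixed. Beside these values, oligodendrocyte lineage markers were higher in VC- than in D0 in both replicates for 11 of 15 and lower for 1. Markers of stem cells and proliferation were higher for 1 and lower for 6 of 12, with sums of 4176 and 4601 CPM in VC- and 4523 and 5174 CPM in D0. Over all genes tested, 28.6% were higher and 29.5% lower in both replicates. The part of these cell types in the result was not tested.

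Cells differentiated with vitamin C showed no common direction against the stem cells. In VC+ against D0, 8 of 37 genes were higher in both replicates (28.6% of all genes were) and 3 were lower in both (29.0% of all genes), and the other 26 had a different sign in each. All 18 sterol enzymes were higher than in D0 in replicate 1, and 14 of the 18 were lower in replicate 2. A higher value in replicate 1 with a lower one in replicate 2 was found for 20.4% of all genes. The VC+ libraries were labelled D4 in replicate 1 and D5 in replicate 2, so replicate and day cannot be told apart here. The sterol median was 0.05, with 0.41 in replicate 1 and -0.29 in replicate 2, and the fatty acid median 0.06, with 0.31 in replicate 1 and -0.20 in replicate 2. Without the replicate block 0 of 11823 genes (0%) passed by limma and 507 were at an unadjusted p under 0.05. By edgeR these counts were 0 and 505. DESeq2 called 137, none of them listed here. The sterol median was -0.53 without VC+ replicate 1, 0.67 without VC+ replicate 2, 0.28 without D0 replicate 1 and -0.19 without D0 replicate 2.

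The 8 genes higher in VC+ than in D0 in both replicates were Hmgcs1, Pmvk, Idi1, Sqle, Insig2, Fasn, Acsl1 and Me1. Acsl1 had the largest limma difference among them, 1.02 (SE 0.30), with both VC+ libraries above both D0 libraries, and Fasn (0.46, SE 0.30) and Me1 (0.85, SE 0.45) did not overlap either. These were 3 of 37 genes, against 14.2% of all genes tested. Acsl1 was the 1 listed gene with an unadjusted p under 0.05 by limma (0.0189), and its adjusted p was 1.00. Stard4 (-0.91, SE 0.72), Acly (-0.12, SE 0.53) and Lpin1 (-0.48, SE 0.37) were the 3 lower in both. Scd1 differed from D0 by a log2 of 0.01 in the fit, and by -0.62 in replicate 1 and 0.65 in replicate 2. This comparison shares its VC+ libraries with the first and its D0 libraries with the second, so the 3 sets of differences are not independent of each other.

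**Figure D4:**
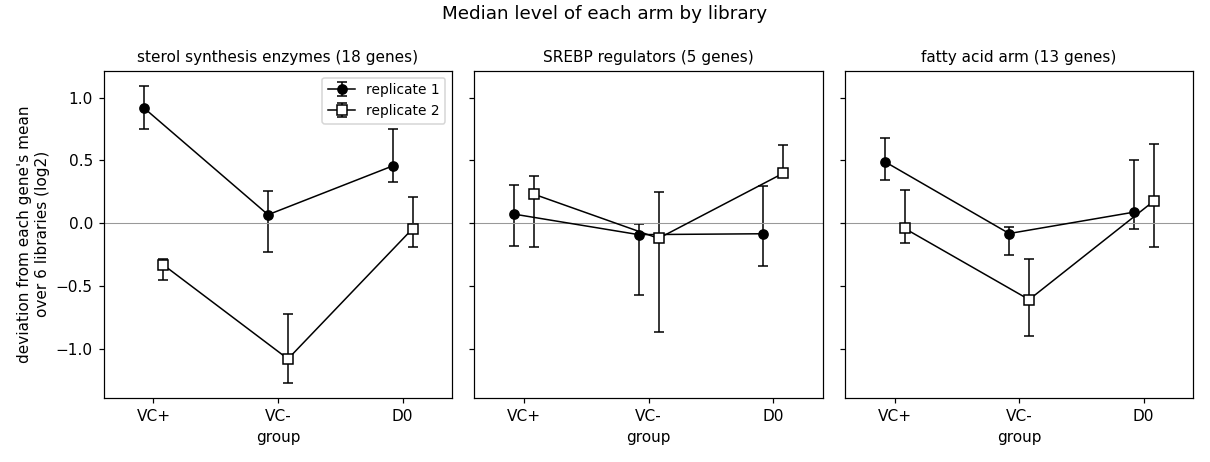
Median deviation of each gene from its own mean over the 6 libraries, in log2(CPM + 0.5), for the sterol enzymes (left), regulators (middle) and fatty acid arm (right), by group and replicate; bars span the interquartile range over genes. In the sterol and fatty acid arms the VC- point is the lowest of each replicate, and for the sterol enzymes each replicate 1 point (0.92, 0.07 and 0.46 in VC+, VC- and D0) lies above its replicate 2 point (-0.33, -1.08 and -0.04).

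The sterol enzymes also differed between replicates of the same group. They were higher in replicate 1 than in replicate 2 for 18 of 18 in VC+, 17 of 18 in VC- and 15 of 18 in D0, with median log2 differences of 1.34, 1.15 and 0.55. The fatty acid arm did so for 10, 10 and 8 of 13 genes, with medians of 0.56, 0.33 and 0.27. Over all genes tested the medians were 0.01, 0.03 and -0.02. In VC+ the gap between replicates was widest in Hmgcs1, at 1.91 on the log2 scale, whereas Scd1 went the other way, at -1.20. Replicate 1 had the higher sum of oligodendrocyte lineage markers in each group and replicate 2 the higher sums of microglia and fibroblast markers. Replicate number also goes with the day label in differentiated cells (D4 or D5) and with library depth in every group. These cannot be told apart, and the part of each in the gap was not tested.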

How the data were processed

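Per the labels' protocols, a TruSeq RNA kit was used for the libraries. The authors deposited a table of CPM, 1 value per gene and library. The rn5 build and, with no role stated, deepTools 2.4.2, HOMER 4.9.1, STAR 2.5.1, Bowtie2 2.1.0, CASAVA 1.7 and edgeR 3.12.1 stand in the submitters' processing notes; the counter, annotation and filter are not given in the sources used here. Within a library the genes in the table held between 60.2% and 67.7% of the reads used for scaling. All values (100%) were whole multiples of the value of 1 read (tolerance 1e-06), so whole reads were recovered. The 11823 genes that reached 1 CPM in 2 or more libraries were tested with limma 3.58.1 (trend, two-sided, R 4.3.3) on log2(CPM + 0.5), which understates differences of low genes, fitting all 3 groups together (3 residual degrees of freedom), and Benjamini-Hochberg adjusted p under 0.05 was called. Arm medians carry no test. VC+ and VC- libraries of a number share a day label, and their deviations from the group mean correlated across genes at 0.914, so the replicate block (2 residual degrees of freedom) is given for them.

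Other settings tried were TMM and median-of-ratios rescaling, pseudocounts of 0.1 and 2, a minimum of 5 CPM or none, the block, fits of 2 groups, no trend, the recovered reads in DESeq2 1.42.0 and edgeR 4.0.16 (with and without the block), and each library left out in turn. Promoters came from RefSeq (GRCr8), and no coordinates of the authors' build were used. The members and lists were chosen with earlier results of these data known. Named genes are the members and the 2 genes of highest mean CPM in each related list. The same holds for the astrocyte, oligodendrocyte lineage and microglia marker lists, and the other marker lists are given without gene names. Others are named where the text says that they were picked with their values known.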

Additional observations from a re-analysis of the deposited data

How the results depend on the processing

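Over 13 settings other than leaving out a library, the sterol median with vitamin C stayed between 0.73 and 0.81. The fatty acid median, 0.60 as reported, was 0.77 and 0.51 with pseudocounts of 0.1 and 2, 0.65 at 5 CPM, 0.73 with edgeR, 0.78 with edgeR and the block, 0.73 with DESeq2 and 0.79 with DESeq2 and the block, and the sterol minus fatty acid gap was 0.015 with the block in edgeR and in DESeq2. DESeq2 called 6, 71 and 137 genes (with vitamin C, VC- against D0, VC+ against D0) and 32, 457 and 772 with the replicate block, and 0, 1 and 0 members, or 2, 4 and 0 with the block; limma and edgeR called 0 in each. Rescaling moved the median of all genes by less than 0.1. For the comparisons with D0 the libraries share only a number, and deviations correlated at 0.730 (VC- and D0) and 0.688 (VC+ and D0); with the block limma gave 1550 and 1885 genes at an unadjusted p under 0.05, 18 and 3 of them members, and the 4 members DESeq2 called lower in VC- were Scd1 (adjusted p 1.03e-05), Fdps (0.0269), Stard4 (0.0296) and Tm7sf2 (0.0350). The paired fit changed no other call of a member.

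Leaving out 1 library at a time, the lone library being assumed to vary like the other groups, gave 0 calls throughout and these lowest and highest values: with vitamin C, sterol median 0.16 to 1.48, fatty acid median 0.33 to 0.79, gap -0.19 to 0.77; VC- against D0, -1.32 to -0.25, -0.88 to -0.085 and -0.62 to 0.23; VC+ against D0, -0.53 to 0.67, -0.13 to 0.34 and -0.40 to 0.33. Signs turned for 10 genes with vitamin C (Mvk -0.22 to 1.11, Pmvk -0.037 to 1.00, Fdft1 -0.028 to 1.67, Acat2 -0.31 to 1.49, Stard4 -0.013 to 0.90, Srebf1 -0.021 to 1.58, Srebf2 -0.019 to 0.85, Insig2 -0.25 to 0.67, Acly -0.24 to 0.79, Lpin1 -0.19 to 0.16), for 13 in VC- against D0 (Hmgcs1 -1.54 to 0.083, Mvk -1.13 to 0.20, Pmvk -0.66 to 0.37, Mvd -0.79 to 0.12, Idi1 -1.34 to 0.19, Acat2 -1.55 to 0.021, Scap -0.50 to 0.38, Insig2 -0.59 to 0.33, Acly -0.91 to 0.12, Fasn -0.15 to 0.17, Elovl5 -0.89 to 0.49, Acsl3 -0.89 to 0.016, Me1 -0.27 to 0.91) and for 30 in VC+ against D0 (Hmgcs1 -0.54 to 1.36, Mvk -0.51 to 0.46, Pmvk -0.051 to 0.72, Mvd -0.33 to 0.67, Idi1 -0.50 to 1.15, Fdps -0.86 to 0.52, Fdft1 -0.81 to 0.67, Sqle -0.043 to 0.43, Lss -0.52 to 0.61, Cyp51 -0.64 to 0.77, Tm7sf2 -0.68 to 0.77, Msmo1 -0.90 to 0.41, Nsdhl -0.51 to 0.76, Hsd17b7 -0.88 to 0.87, Ebp -0.30 to 0.16, Sc5d -0.47 to 0.64, Dhcr7 -0.80 to 0.61, Acat2 -1.07 to 0.73, Srebf1 -0.74 to 0.53, Scap -0.25 to 0.64, Insig1 -0.60 to 0.41, Insig2 -0.27 to 0.44, Acly -0.57 to 0.32, Acaca -0.24 to 0.35, Scd1 -0.59 to 0.61, Scd2 -0.42 to 0.14, Elovl5 -0.56 to 0.82, Fads1 -0.52 to 0.34, Fads2 -0.13 to 1.17, Acsl3 -0.36 to 1.51). Other settings turned no sign with vitamin C, 1 in VC- against D0 (Fasn, -0.0019 with DESeq2) and those of 7 genes near 0 in VC+ against D0: Mvk 0.039 (edgeR) and 0.014 (DESeq2), Fdft1 0.082 and 0.057, Dhcr7 0.078 and 0.053, Elovl5 -0.012 and -0.037, Cyp51 -0.00018 (DESeq2 with the block), Scd1 -5.2e-05 (TMM), and Hsd17b7 0.045 (pseudocount 2), 0.27 and 0.059 (edgeR without and with the block), 0.24 and 0.044 (DESeq2 likewise). The cause of these moves was not tested. Elovl6 and Hsd17b7 rest on few reads, which limits the precision of their values.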

Other observations

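Of the 84 tested genes in the 6 neighbouring lists, 5 were higher in VC+ than in VC- by more than 0.4 (log2) in both replicates and 2 were lower by more than that, against 5.77% and 3.05% of all genes tested, so that the shares lie near the background; apart from Clu, given above, they were chosen after their values were seen. Acsbg1, an acyl-CoA synthetase abundant in brain, had 89.2 and 78.6 CPM in VC+ libraries, 57.4 and 32.9 CPM in VC- libraries and 80.5 and 44.4 CPM in D0 libraries. Acsl5, another acyl-CoA synthetase, had 12.3 and 23.8 CPM in VC+ libraries, 7.32 and 15.3 CPM in VC- libraries and 15.4 and 21.4 CPM in D0 libraries. Acss2, which makes acetyl-CoA from acetate, had 55.6 and 58.9 CPM in VC+ libraries, 40.6 and 38.8 CPM in VC- libraries and 43.5 and 34.4 CPM in D0 libraries, with both VC+ libraries above the other 4. Hacd1, a dehydratase of chain elongation, had 5.45 and 7.82 CPM in VC+ libraries, 3.84 and 5.05 CPM in VC- libraries and 3.66 and 4.14 CPM in D0 libraries. The 2 lower genes were Dgat2, which makes triglycerides, at 19.998 and 10.6 CPM in VC+ libraries, 27.3 and 15.0 CPM in VC- libraries and 8.70 and 21.1 CPM in D0 libraries, and Abcg1, a sterol exporter, at 12.4 and 108 CPM in VC+ libraries, 17.7 and 168 CPM in VC- libraries and 15.8 and 124 CPM in D0 libraries. All 7 had an adjusted p of 1.00 by limma.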
